A study of Rattus norvegicus with 9 samples.

Results

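The metallothioneins Mt1 and Mt2 and the oxidative stress enzymes Hmox1, Sod2, Sod3, Gclm, Gclc, Txnrd1 and Nqo1 were examined in the hearts of rats, as a set of 9 genes chosen by name. Of the 9, 7 were listed in a table of Cal and Model libraries and 4 in a table of Model and Con libraries, out of 5760 genes listed in either table. Mt1, Mt2, Sod2 and Txnrd1 stood in both tables. Hmox1, Gclm and Nqo1 stood only in the Cal and Model table. Sod3 and Gclc were listed in neither, and no level is given for them.

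Cardiac mRNA was sequenced from 9 samples of Sprague Dawley rats, 3 in each of the groups Control, Model and Cal. Per the study's methods, the Model animals had heart failure after the left anterior descending artery was tied off, and received water by mouth. The Cal animals had the same ligation and received calycosin, an isoflavone, by mouth each day, and the controls were sham operated. Ligation produces an infarct, so the tissue of the ligated groups holds surviving muscle, scar and immune cells in proportions that the labels do not give.

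The column headings of the tables contradict each other, and every direction given here rests on them. Each table also carries a column of group means made by the authors. In the Cal and Model table, averaging Model_1 to Model_3 gives the column of means called Cal, and averaging Cal_1 to Cal_3 gives the one called Model. The Model and Con table has Cal_1 to Cal_3 behind its column of means called Model. The sample columns headed Cal were the same libraries in both tables, with identical reads in 986 of the 986 genes that both list. Each library is called here by its own column's name. Under the mean columns, the names Cal and Model change places and every Cal to Model direction turns around. Every Cal to Con value would then compare Model with Con, and every Model to Con value Cal with Con.

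Metallothioneins are small cysteine-rich proteins that bind zinc and copper and react readily with oxidants. Their genes are induced by metals through the factor MTF1, by glucocorticoids and by inflammatory cytokines. The enzymes of the set act at separate steps of oxidant defence. Superoxide dismutases turn superoxide into hydrogen peroxide, glutamate-cysteine ligase (Gclc with its modifier subunit Gclm) makes the precursor of glutathione, thioredoxin reductase (Txnrd1) recharges thioredoxin, heme oxygenase (Hmox1) degrades heme, and Nqo1 reduces quinones. Several of them are classical targets of the transcription factor NRF2, which binds antioxidant response elements.

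The rat promoters of the metallothionein genes are shown because the metal response elements that MTF1 binds are dense in them. The sequences are the 250 bases before the annotated start in RefSeq's GRCr8 assembly, where Mt2 is named Mt2A, and the capitals mark matches to TGCACNC or TGCGCNC on either strand. They lie at chr19:10832976-10833225 (Mt1, minus strand) and chr19:10838709-10838958 (Mt2A, minus strand).
Mt1: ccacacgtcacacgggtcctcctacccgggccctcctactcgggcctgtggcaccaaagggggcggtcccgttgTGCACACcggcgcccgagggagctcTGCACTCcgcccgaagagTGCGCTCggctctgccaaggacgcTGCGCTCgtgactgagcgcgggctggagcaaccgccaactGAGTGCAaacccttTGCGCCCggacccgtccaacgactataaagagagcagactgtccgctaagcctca
Mt2A: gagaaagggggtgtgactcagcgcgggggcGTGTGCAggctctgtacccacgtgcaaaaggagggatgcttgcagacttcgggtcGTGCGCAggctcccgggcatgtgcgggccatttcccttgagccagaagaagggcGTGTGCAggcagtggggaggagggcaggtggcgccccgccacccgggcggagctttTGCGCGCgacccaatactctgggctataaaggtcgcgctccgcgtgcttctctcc

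The Mt1 window held 6 such matches and the Mt2A window 4. Of 33469 windows of the same length, 20.6% held at least 1 match, 0.266% held at least 4 and 9 windows held at least 6. RefSeq windows were found for 7 of the 9 members, and those of Sod2, Gclc, Txnrd1 and Nqo1 held no match. The Gclm window held 2, both of the form TGCGCNC.

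The core of the antioxidant response element, TGACNNNGC on either strand, was found in the Mt1, Mt2A, Sod2 and Gclm windows and in 1 of the 2 Txnrd1 windows, and in neither the Nqo1 nor the Gclc window. It was present in 10.1% of all 33469 windows. Only these 250 bases were searched, so an element lying elsewhere near any of these genes would not be seen. The Gclm and Txnrd1 matches are shown as examples, with the core in capitals. The Sod2 match is not shown. The Gclm stretch is chr2:213031947-213031987 (plus strand) and the Txnrd1 stretch chr7:22755958-22755998 (minus strand), both GRCr8. These letters are a description of the windows, and binding was not measured.
Gclm: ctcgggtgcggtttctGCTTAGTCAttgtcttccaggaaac
Txnrd1: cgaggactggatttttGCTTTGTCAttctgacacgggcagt

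Levels are given as normalized counts, the reads on a gene divided by a library's size factor. The libraries held 2860826 to 3998471 reads on the 4288 genes of the Cal and Model table, and 3270460 to 4659882 on the 2458 genes of the Model and Con table. Both tables list only genes that the authors had found to differ between their groups, with every deposited adjusted p below the usual threshold. A call on a listed gene therefore repeats that selection, and the shares called among all listed genes are given beside the counts of members. The test was limma, run on log2(normalized count + 1) with Benjamini-Hochberg adjustment over all genes of a table, and a gene was called when its adjusted p was under 0.05 and its log2 fold change went beyond 1. The labelled tissue was borne out by Myh6, the cardiac myosin heavy chain, at 247859 to 336025 normalized counts in the libraries of the Model and Con table.

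In the Cal and Model table, all 7 listed members were higher in the libraries headed Model, although Sod2 turned the other way after quantile normalization. The metallothioneins and Hmox1 differed most, Gclm and Txnrd1 by about the median of the table, and Sod2 and Nqo1 by less than nearly all other listed genes. All 7 passed an adjusted p under 0.05 in that direction, as did 53.7% of the 4288 listed genes. The fold limit was passed by 5 members, against 31.6% of the listed genes. The Cal and Model libraries did not overlap for any of the 7 members, and they did not overlap for 98.2% of the listed genes. The median log2 fold change, Cal over Model, was -1.18 over the members and -0.52 over all listed genes.

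**Figure D1:**
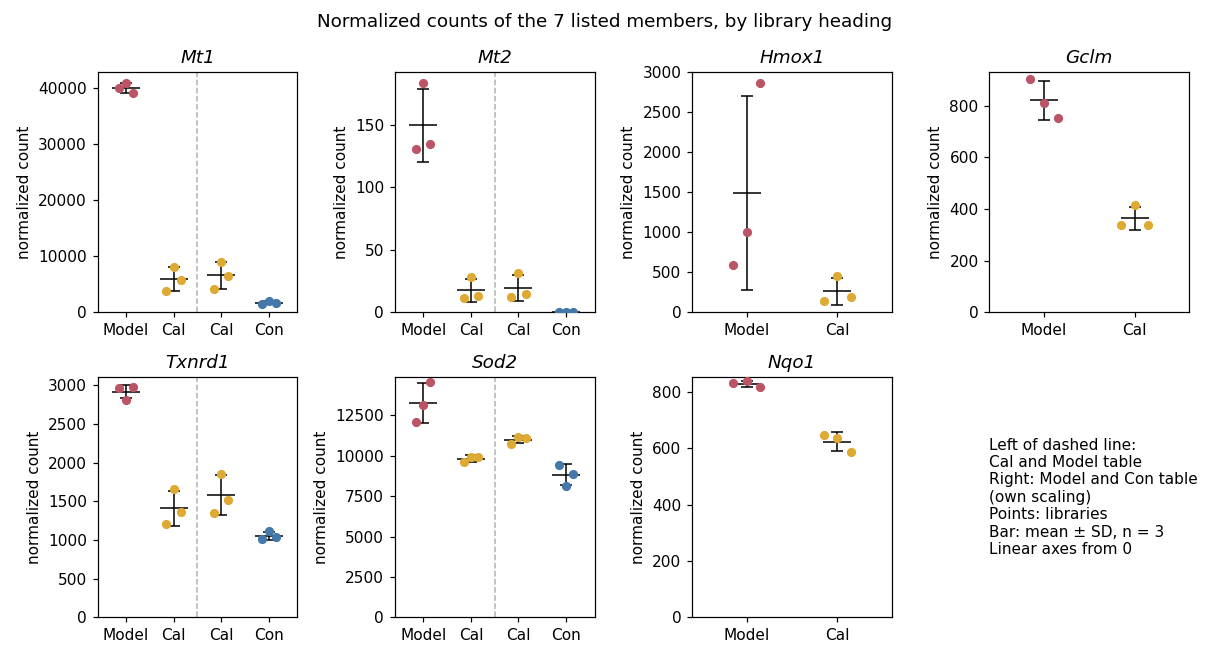
Normalized counts (linear axes from 0) of the 7 listed members in each library, grouped by sample heading, with points for libraries and bars for the mean and SD of 3. Left of each dashed line is the Cal and Model table and right of it the Model and Con table on its own scale. On this deposited scaling each member of the Cal and Model table lies higher in every Model library than in every Cal library, with Mt1 between 38991 and 40817 in the Model libraries.

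Mt1 was the most abundant member, and the 4th most abundant of all genes in the Cal and Model table. It stood at 39899, 40817 and 38991 normalized counts in the Model libraries and at 3718, 8009 and 5796 in the Cal libraries. The Model libraries lay within 1.05 times of each other, whereas the Cal libraries spread over 2.15 times. The means were 39902 ± 913 and 5841 ± 2146 (SD, n = 3 each), a 6.83-fold difference. The fitted log2 fold change, Cal over Model, was -2.84 (SE 0.27, limma adjusted p = 0.000258), further from 0 than that of 90.8% of the listed genes.

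Mt2 followed the same order at a far lower level. It had 131, 183 and 134 normalized counts in the Model libraries and 11.1, 28.2 and 12.8 in the Cal libraries. These values rest on 121, 150 and 140 reads, and on 12, 30 and 15 reads. The groups did not overlap, and the means of 149 ± 29.2 and 17.3 ± 9.40 differed 8.60-fold (log2 fold change -3.13, SE 0.37, limma adjusted p = 0.000478).

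The ratio of the paralogs does not depend on the scaling of a library. There were 305, 223 and 291 reads on Mt1 for each read on Mt2 in the Model libraries, and 336, 284 and 452 in the Cal libraries, with overlapping ranges. The log2 ratio differed by 0.29, Cal minus Model, with p = 0.4 in an exact two-sided permutation test, whose smallest possible p here is 0.1, so no difference could have passed. With a pseudocount of 10 the difference was -0.26. The closely related Mt1 and Mt2 transcripts may share reads, so the split between them is uncertain.

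Hmox1, the inducible enzyme that opens the heme ring, was the most variable member. Its Model libraries held 593, 996 and 2865 normalized counts and its Cal libraries 137, 452 and 185. The highest Model library exceeded the lowest 4.83 times, and the highest Cal library came close to the lowest Model library. The log2 fold change, Cal over Model, was -2.39 (SE 0.63, limma adjusted p = 0.00832). Without Model replicate 3 it was -1.76 (limma adjusted p = 0.0209), and leaving out any 1 library it ran from -2.90 to -1.76.

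Gclm, the modifier subunit of glutamate-cysteine ligase, held 903, 812 and 752 normalized counts in the Model libraries. It held 339, 415 and 336 in the Cal libraries, so every Model value lay above every Cal value. The means of 822 ± 75.7 and 364 ± 44.4 differed 2.26-fold (log2 fold change -1.18, SE 0.15, limma adjusted p = 0.000607). Gclc, the catalytic subunit, was not listed, and the balance of the subunits could not be computed.

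Txnrd1, the cytosolic thioredoxin reductase, held 2963, 2817 and 2975 normalized counts in the Model libraries and 1210, 1659 and 1364 in the Cal libraries. The Model libraries were tight and the groups did not overlap. The means of 2918 ± 88.0 and 1411 ± 228 differed 2.07-fold (log2 fold change -1.06, SE 0.15, limma adjusted p = 0.000863). The value lay close to the fold limit, and without Cal replicate 1 it was -0.96, which left 4 members called.

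Sod2, the mitochondrial superoxide dismutase, was abundant and changed little. It held 12067, 13157 and 14548 normalized counts in the Model libraries and 9604, 9945 and 9941 in the Cal libraries. The 1.35-fold difference gave a log2 fold change of -0.43 (SE 0.15, limma adjusted p = 0.0220), nearer to 0 than all but 1.17% of the listed genes. It became 0.47 after quantile normalization and -0.13 after median-ratio scaling, and leaving out any 1 Cal library raised the adjusted p above the threshold, to at most 0.0904.

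Nqo1, the quinone reductase, held 834, 838 and 817 normalized counts in the Model libraries and 649, 636 and 586 in the Cal libraries. Both groups were tight and they did not overlap. The log2 fold change was -0.41 (SE 0.12, limma adjusted p = 0.0124), and it was -0.03 after quantile normalization and -0.11 after median-ratio scaling, where it no longer passed. Without Cal replicate 3 its adjusted p was 0.0599.

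**Figure D2:**
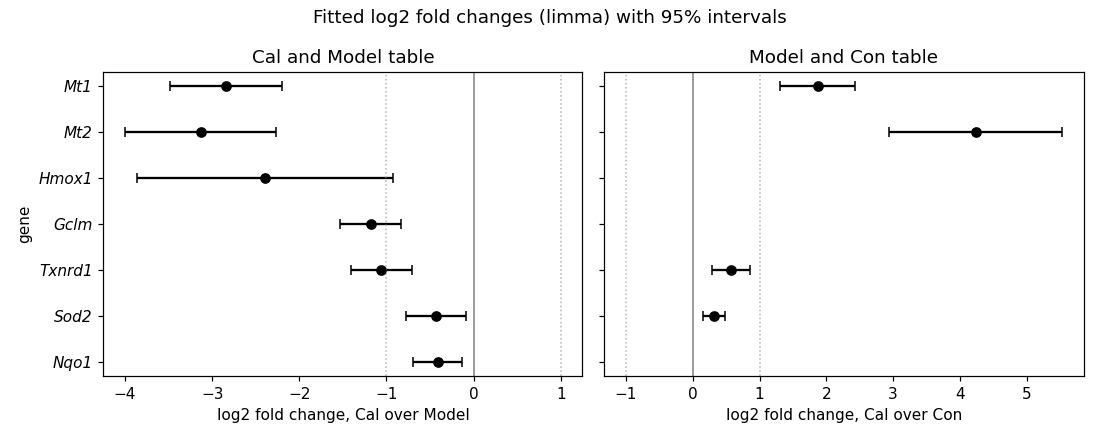
Fitted log2 fold changes (points) with 95% intervals (bars) from limma for each listed member, Cal over Model on the left and Cal over Con on the right, with dotted lines at the fold limit. On the deposited scaling all intervals lie below 0 on the left and above 0 on the right. Sod2 and Nqo1 lie inside the dotted lines on the left, and Sod2 and Txnrd1 on the right.

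The Model and Con table listed 4 members, all higher in the libraries headed Cal than in those headed Con, although Sod2 turned the other way after quantile normalization. All 4 passed an adjusted p under 0.05 in that direction, as did 60.6% of the 2458 listed genes. Only the metallothioneins passed the fold limit, 2 of 4, against 18% of the listed genes. The groups did not overlap for any of the 4, nor for 97.4% of the listed genes. The median log2 fold change, Cal over Con, was 1.22 over the members and 0.37 over all listed genes. The Cal libraries are those of the other table, so the comparisons are not independent.

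Mt1 held 1527, 2000 and 1616 normalized counts in the Con libraries and 4159, 8980 and 6462 in the Cal libraries. The lowest Cal library lay above the highest Con library. The means of 6534 ± 2412 and 1714 ± 251 differed 3.81-fold (log2 fold change 1.87, SE 0.25, limma adjusted p = 0.000416).

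Mt2 had 0 reads in each of the 3 Con libraries and 12, 30 and 15 in the Cal libraries. Its Cal values were 12.4, 31.6 and 14.3 normalized counts. A count of 0 was taken to allow up to 3 reads per library, or 2.93 normalized counts on average. The Cal mean of 19.4 was 6.63 times that level, with no allowance for the spread of the Cal libraries. In the Con libraries, 1639, 2036 and 1597 reads fell on Mt1, so the ratio of Mt1 to Mt2 was at least 546, 679 and 532. These limits lie above the ratios of 223 to 452 in the other libraries, a difference that was not tested. The limits cover only the counting error of Mt2 in the Con libraries, and not how completely its reads were assigned.

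Sod2 held 9416, 8126 and 8899 normalized counts in the Con libraries and 10742, 11151 and 11083 in the Cal libraries. The groups stood apart, by 1.25-fold in their means (log2 fold change 0.32, SE 0.07, limma adjusted p = 0.00413). The direction turned to -0.11 after quantile normalization, and the value was 0.04 after median-ratio scaling. Txnrd1 held 1009, 1116 and 1040 in the Con libraries and 1354, 1860 and 1521 in the Cal libraries. The log2 fold change was 0.57 (SE 0.12, limma adjusted p = 0.00359), and the value was 0.12 after quantile normalization and 0.29 after median-ratio scaling, neither of which passed.

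A view over all 3 groups comes from bringing the Con libraries onto the scale of the Cal and Model table through the shared Cal libraries, with a factor of 0.894. Values are given in the order Con, Cal, Model. Mt1 stood at 1533 ± 225, 5841 ± 2146 and 39902 ± 913 normalized counts, 26.0-fold higher in Model than in Con. Txnrd1 stood at 943 ± 49.1, 1411 ± 228 and 2918 ± 88.0, a 3.09-fold difference between Model and Con. Sod2 stood at 7882 ± 581, 9830 ± 196 and 13258 ± 1244, a 1.68-fold difference, although both of its steps reversed after quantile normalization. The Model mean of Mt2 was 57.0 times the level that 3 reads per library would give in Con, with no allowance for the spread of the Model libraries. The Model to Con differences join 2 separately normalized tables and were not tested.

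Per kilobase of the deposited gene length, Mt1 stood highest of the 7 listed members in the Model and Cal libraries, and of the 4 listed members in the Con libraries. In the Model libraries it stood at 32024 normalized counts per kilobase, followed by Sod2 at 1325, Hmox1 at 848, Nqo1 at 534, Txnrd1 at 412, Mt2 at 254 and Gclm at 131. Hmox1 ranged from 339 to 1636 over the Model libraries, so its place beside Sod2, Nqo1 and Txnrd1 is not separated by the spread. In the Cal libraries the order was Mt1 at 4688, Sod2 at 982, Nqo1 at 402, Txnrd1 at 199, Hmox1 at 148, Gclm at 57.8 and Mt2 at 29.5. There Hmox1 (78.5 to 258) overlapped Txnrd1 (171 to 234), and its range lay above that of Gclm (53.5 to 65.9). Mt2 thus stood above Gclm in the Model libraries and below it in the Cal libraries. The order between genes depends on the deposited lengths, which belong to mouse Ensembl genes and may differ from those of the rat transcripts. That of Mt1, 1246 bases, covers the full deposited span of the gene. How completely rat reads were assigned to each gene was not tested.

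Most members were highest in the same Cal library. Cal replicate 2 was the highest of its group for 6 of the 7 members in the Cal and Model table, where it was the highest for 30.9% of all listed genes. The exception was Nqo1, and Sod2 in Cal replicate 2 exceeded the next library only slightly. The Model libraries showed no such agreement, with replicates 1, 2 and 3 the highest for 1, 3 and 3 members. Markers of neutrophils, summed over the 7 of 8 that were listed, ranged from 83.0 to 253 normalized counts in the Cal libraries and from 1033 to 1158 in the Model libraries. All 7 were higher in Model under each scaling, and the remaining one, Ly6g, was not listed. Endothelial markers went the other way, with 7 of 8 listed, all higher in Cal under each scaling, and sums of 16545 to 17525 in Cal and 6283 to 8328 in Model. Macrophage markers were mixed, with 4 of the 6 listed higher in Cal and 2, Fcgr1 and Itgam, higher in Model, under each scaling. Of the fibroblast markers 4 of 8 were listed, with Col1a1 (log2 fold change, Cal over Model, 1.38), Col3a1 (0.85) and Dpt (0.67) higher in Cal under each scaling and Dcn lower (-0.68), which turned to 0.15 after quantile normalization. No cardiomyocyte, lymphocyte or erythroid marker was listed in that table. S100a8 and S100a9 were the neutrophil markers listed in the Model and Con table and were higher in Cal (sums of 48.5 to 183 against 13.0 to 28.5), while 5 endothelial and 4 fibroblast markers and Mrc1, the one macrophage marker listed (log2 fold change -0.49), were lower in Cal under each scaling. The 3 cardiomyocyte markers (Myh6, Ryr2 and Atp2a2) and the 4 erythroid ones were higher in Cal. None of the cardiomyocyte markers passed after either rescaling. For Myh6 and Atp2a2 quantile normalization gave a log2 fold change of 0, which it gives to any gene of the same rank in every library. Of the erythroid markers 1 passed after quantile normalization and 2 after median-ratio scaling. The part that cell content has in the members' levels was not tested, and in bulk tissue fewer cells of a type and less RNA per cell cannot be told apart.

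The scaling bears on the smaller differences. Median-ratio scaling assumes that most genes do not differ, and quantile normalization that all libraries share the same distribution of values. All genes here were listed for differing, so the rescalings cannot decide which scaling is right. Median-ratio scaling over the listed genes moved the median log2 fold change, Cal over Model, by 0.30, and quantile normalization moved it by 0.42. The shifts in the Model and Con table were -0.28 and -0.42. The called genes split into 1219 higher and 1356 lower in Cal in the Cal and Model table, against 1646 and 1047 after median-ratio scaling. The split in the Model and Con table was 443 higher and 269 lower, against 342 and 447 after median-ratio scaling and 348 and 387 after quantile normalization. Relative to the median gene of the Cal and Model table, the log2 fold change was -2.32 for Mt1, -2.61 for Mt2, -1.87 for Hmox1, -0.65 for Gclm, -0.54 for Txnrd1, 0.10 for Sod2 and 0.11 for Nqo1. The metallothioneins and Hmox1 kept their direction and their call under each scaling, whereas Gclm and Txnrd1 kept the direction and the adjusted p but fell inside the fold limit.

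**Figure D3:**
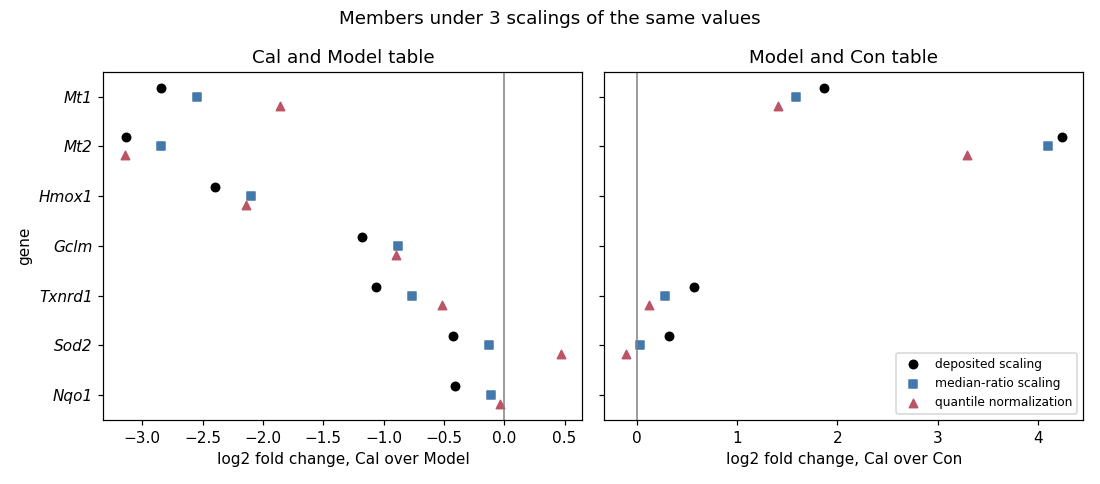
Log2 fold changes of the listed members under the deposited scaling, median-ratio scaling and quantile normalization, Cal over Model on the left and Cal over Con on the right. Mt1, Mt2, Hmox1, Gclm and Txnrd1 keep their side of 0 under all 3 scalings, and Sod2 crosses 0 under quantile normalization in both panels.

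Further genes of the members' pathways were counted from 6 lists, in which the members themselves are included. Their counts stand beside the 53.7% of all genes in the Cal and Model table that passed as lower in Cal. For the Model and Con table the share is the 60.6% of all genes that passed as higher in Cal. Both shares are those of the deposited scaling. The split of all called genes also moved under the rescalings, so counts that passed after rescaling cannot be set against these shares. In the Cal and Model table, 13 of 35 genes of metallothionein, zinc and copper handling were listed, and all 13 were lower in Cal, against 53.7% of all listed genes, with a median log2 fold change of -1.41, against -0.52. Slc39a14, a zinc and iron importer of the acute phase response, stood at 1344 ± 238 in Cal and 5155 ± 345 normalized counts in Model (log2 fold change -1.95, limma adjusted p = 0.000178). The zinc importers Slc39a8 (-1.62) and Slc39a10 (-1.41) and the zinc-binding neutrophil proteins S100a8 (-2.69) and S100a9 (-2.52) were lower too. After quantile normalization 11 of the 13 passed, none of them higher in Cal, and after median-ratio scaling 10 passed.

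Of the same 35 genes, 8 were listed in the Model and Con table, 7 higher and 1 lower in Cal, against 60.6% of all listed genes higher, with a median log2 fold change of 1.24, against 0.37. The median was 0.78 after quantile normalization and 0.96 after median-ratio scaling. Mtf1, the zinc-sensing factor of the metallothionein genes, stood at 422 ± 30.9 in Cal and 317 ± 24.6 in Con (log2 fold change 0.41, limma adjusted p = 0.00999), and no longer passed under either rescaling. Slc39a10 was the one gene lower in Cal (log2 fold change -0.67).

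For glutathione synthesis and use, 9 of 40 genes were listed in the Cal and Model table, 8 lower and 1 higher in Cal, against 53.7% of all listed genes lower, and 7 of the 8 lower ones passed after quantile normalization and 5 after median-ratio scaling. Slc7a11, which imports the cystine for glutathione, stood at 16.7 ± 9.64 in Cal and 69.6 ± 27.2 in Model (log2 fold change -2.07). Gsr, the glutathione reductase, stood at 351 ± 2.46 and 668 ± 48.2 (-0.93), and Chac1, which degrades glutathione, at 128 ± 44.7 and 245 ± 49.9 (-0.97). Gstt1, a glutathione transferase, was the one gene higher in Cal (0.84). The Model and Con table listed 5, with 4 higher and 1 lower in Cal (60.6% of all listed genes higher), but the list's median of 0.35 was 0.06 after median-ratio scaling and turned to -0.12 after quantile normalization. Slc7a11 (2.97) and Chac1 (1.54) were the largest rises there, and Gstt3 was lower (-1.31). Slc7a11 stood at only 18.7 ± 10.8 in Cal and 1.63 ± 1.53 in Con, so its value rests on few reads.

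For thioredoxins, peroxiredoxins, superoxide dismutases and catalase, 8 of 26 genes were listed in the Cal and Model table, 6 lower and 2 higher in Cal (53.7% of all listed genes lower), compared with 3 and 3 that passed after quantile normalization. Txnip, which binds and inhibits thioredoxin, was the largest fall, from 18976 ± 2877 in Model to 5696 ± 423 in Cal (log2 fold change -1.73, limma adjusted p = 0.000272). Txn1 itself (-0.76), the stress-induced Sesn2 (-1.19) and the methionine sulfoxide reductase Msrb1 (-0.80) were also lower, while Msrb3 (0.38) and Sesn1 (0.41) were higher. The Model and Con table listed 5, all higher in Cal (60.6% of all listed genes), with a median of 0.32, but none passed as higher under either rescaling and the median turned to -0.08 after quantile normalization.

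For NRF2 regulators and further targets, 13 of 36 genes were listed in the Cal and Model table, 9 lower and 3 higher in Cal (53.7% of all listed genes lower), with Abcc2 not passing (limma adjusted p = 0.0748). Of the 9, 5 passed under each rescaling. Nfe2l2, which encodes NRF2, stood at 1448 ± 101 in Cal and 2837 ± 708 in Model (log2 fold change -0.94). Its small Maf partners differed in direction, with Mafk lower in Cal (-1.03) and Maff higher (0.95). Trib3, a stress-induced pseudokinase, fell from 221 ± 91.3 to 15.3 ± 6.42 (-3.76), and Ephx1, a microsomal epoxide hydrolase, was higher in Cal (1.57). Of the 36, the Model and Con table listed 11, with 7 higher and 4 lower in Cal, a share near the 60.6% of all listed genes that were higher, and a median of 0.42 that turned to -0.04 after quantile normalization. Maff was the largest rise, at 2535 ± 160 in Cal and 223 ± 16.6 in Con (limma adjusted p = 1.34e-07). Bach1, a repressor of Hmox1, was higher in Cal (1.02), and Trib3 (-1.37) was lower.

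For heme and iron handling, 14 of 38 genes were listed in the Cal and Model table, 10 lower and 4 higher in Cal (53.7% of all listed genes lower). Of the 10, 7 passed after quantile normalization and 8 after median-ratio scaling. Lcn2, a siderophore-binding protein of neutrophils and injured tissue, stood at 268 ± 127 in Cal and 26704 ± 1666 in Model (log2 fold change -6.77, limma adjusted p = 7.65e-05). The hemoglobin scavenger Hp (-3.44) and the metalloreductase Steap4 (-3.37) were lower as well. Tfrc, the transferrin receptor, went the other way, at 2705 ± 410 in Cal and 675 ± 138 in Model (2.01). Blvrb, biliverdin reductase B, was higher in Cal too (0.90). Of the 38, the Model and Con table listed 6, all higher in Cal (60.6% of all listed genes), of which 4 passed under each rescaling. The largest rises were Hamp (2.75), the gene of the iron hormone hepcidin, and Lcn2 (2.45). Hamp stood at only 18.5 ± 5.04 in Cal and 2.62 ± 2.54 in Con, so its value rests on few reads. Lcn2 stood at 300 ± 142 and 51.6 ± 20.2.

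**Figure D4:**
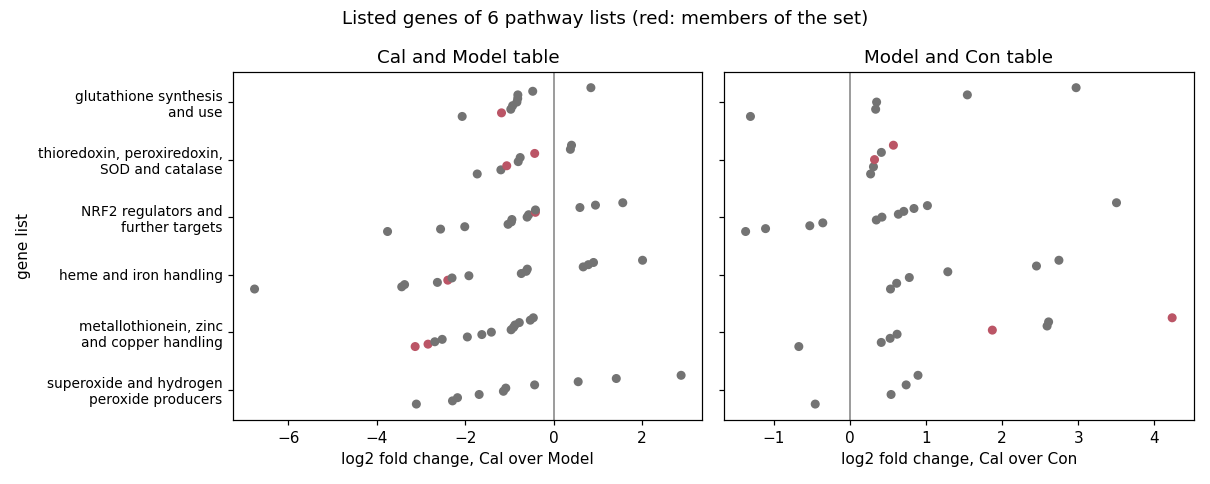
Log2 fold changes of every listed gene in the 6 pathway lists, Cal over Model on the left and Cal over Con on the right, with the members of the set in red and other genes in grey. All 13 listed genes of metallothionein, zinc and copper handling lie left of 0 in the Cal and Model table, whereas the other lists hold genes on both sides.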

How the data were processed

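RNA from 9 rat hearts was sequenced after poly-A selection, per the study's methods. The deposited tables hold signal columns of read counts divided by DESeq2 size factors per library, and a mean for each group. The size factors were recovered from the steps of low values, and 100% of values were whole reads at a tolerance of 0.01. The deposited p-value columns, adjusted and raw, and the fold changes are the authors' comparisons. They served only to check that every listed gene had an adjusted p under 0.05, and none is reported. The study's methods name rat reference sequences, whereas all identifiers are mouse Ensembl genes and the submitters' processing notes name Bowtie 0.12.2 and the builds mm8 and mm9. The build of the deposited coordinates is not given in the sources used here. The other deposited columns, such as gene names, lengths and biotypes, are the authors' annotation. Only listed genes were analysed, so neither table covers the transcriptome.

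limma 3.58.1 (R 4.3.3, trended prior) was fitted to log2(normalized count + 1) within each table, 3 libraries against 3. Fold changes on this scale understate those of low genes. As alternatives, the pseudocount was set to 0.1 and 10, genes under a mean of 10 were dropped, and quantile and median-ratio scaling, edgeR 4.0.16 and DESeq2 1.42.0 on recovered reads, replicate blocks, other thresholds and leaving out each library were run. The prior without a trend was added after seeing the data. The scripts were tested on simulated data. Replicates differed by more than sampling noise and, per the study's methods, came from separate animals. The members and lists were chosen with earlier results of these data known. Named list genes were mainly the up to 4 largest rises and falls per list with a mean of at least 20. Slc39a14, Slc39a8, Slc39a10 in the Cal and Model table, Mtf1, Txn1 in the Cal and Model table, Nfe2l2, Slc7a11 in the Model and Con table and Hamp fall outside that rule and were chosen after their values were seen.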

Additional observations from a re-analysis of the deposited data

How the results depend on the processing

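Of 164 values of the members under alternatives, 162 kept their direction, 2 reversed and 12 no longer passed the threshold, 1 of the reversed values among them. The reversals were Sod2 after quantile normalization, at 0.47 (Cal over Model, limma adjusted p = 0.0491) and -0.11 (Cal over Con, limma adjusted p = 0.133). The values that no longer passed were of Sod2, Nqo1 and, in the Model and Con table, Txnrd1. Without a fold limit, 4272 genes passed in the Cal and Model table, against 2575, while the Model and Con table had 2454 genes, against 712, and 4 members. After either rescaling 3 members were called in the Cal and Model table. With a mean of at least 10, the Model and Con table had 1 called member, because Mt2 fell under that filter. Leaving out 1 library gave 2344 to 2704 and 679 to 775 called genes, 4 to 5 called members of the 7 and 2 of the 4. The log2 ratio of Mt1 to Mt2, Cal minus Model, was -0.26 with a pseudocount of 10 (exact permutation p = 0.2) and 0.11 to 0.42 with 1 library left out. Replicate numbers did not pair the samples, with correlations of deviations from -0.13 to 0.12 between same-numbered libraries. With the replicate block, 2574 and 713 genes and 5 and 2 members were called. The ratio's exact permutation p was 0.25 there, the smallest possible with 3 pairs, so no difference could have passed. Sod2 in the Cal and Model table, which was not a called member, then had a limma adjusted p of 0.0529. No other member crossed the threshold of adjusted p. The fitted Mt2 value, Cal over Con, depends on the pseudocount and is no bound. It was 1.50 with a pseudocount of 10 and 7.48 with 0.1. The ratios of Gclc to Gclm and of Sod2 to Sod3 were not run, since Gclc and Sod3 were not listed. At 12 to 30 reads per Cal library, counting limits the precision of Mt2.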

Other observations

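Genes that produce superoxide and hydrogen peroxide moved in both directions in the Cal and Model table. Of 26 such genes 10 were listed, 7 lower and 3 higher in Cal (53.7% of all listed genes lower), and of the 7, 6 passed after quantile normalization and 5 after median-ratio scaling. Xdh, the xanthine dehydrogenase, stood at 1558 ± 533 normalized counts in Cal and 12968 ± 2397 in Model (log2 fold change -3.10, limma adjusted p = 0.000228). Cybb, the membrane subunit of the phagocyte NADPH oxidase, stood at 531 ± 62.6 and 1732 ± 385 (-1.68), and the lysyl oxidase Lox at 137 ± 29.1 and 621 ± 127 (-2.17). The lysyl oxidase family did not move as one, since Loxl1 (1.42) and Loxl2 (0.56) were higher in Cal, as was the endothelial and smooth muscle amine oxidase Aoc3 (2.89). The Model and Con table listed 4. The oxidase subunits Cybb (0.89), Ncf1 (0.74) and Cyba (0.54) were higher in Cal (60.6% of all listed genes), of which 2 passed after quantile normalization and 1 after median-ratio scaling, and Aoc3 was lower (-0.46).

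Likeness was ranked among genes with a mean of at least 100 normalized counts in their highest group. Of the 906 such genes listed in both tables, Txnrd1 was most like Mt1, and Mt1 the gene most like Txnrd1, with a Pearson r of 0.997 over 9 libraries. The serum amyloid gene Saa3 stood among the 5 most like either of them (0.993 for both). Csf3, a granulocyte growth factor, was most like Mt2 (0.995), and Nfe2l1, a relative of NRF2, was most like Sod2 (0.992). Over the 6 libraries of the Cal and Model table, Itgb3 was most like Gclm (0.998), Synpo most like Hmox1 (0.997) and the small nucleolar RNA host gene Snhg1 most like Nqo1 (0.997), of 3276 such genes. Among the members, Hmox1 had values of 0.78 to 0.94 with the others, and Gclm had 0.98 with each of Mt1, Mt2 and Txnrd1. All these genes were listed for differing between the same groups and the libraries fall into those groups, so such values describe the libraries and carry no test.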
